A study of Sus scrofa with 16 samples.

Results

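EGFR, the epidermal growth factor receptor, was described in the liver of pigs fed 3 different fats, together with 9 related genes. These were the EGFR relatives ERBB2 and ERBB3, the EGFR inhibitor ERRFI1, the receptors MET, INSR, IGF1R, GHR and FGFR4, and the growth hormone target IGF1. The 10 genes were found by their pig symbols among 25880 genes counted, and all 10 were present (EGFR is ENSSSCG00000022126). EGFR was selected on its measured difference between the diets in these pigs, so its levels by diet are given as a description without a test. The other genes were chosen as its relatives in the liver, with earlier results of these data known.

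Liver RNA came from 16 crossbred pigs, the offspring of (Polish Landrace x Polish Large White) sows and (Duroc x Pietrain) boars, fattened from 60 to 118 kg. The fat in the feed was rapeseed oil in 5 pigs (group R, 3 gilts and 2 barrows), beef tallow in 5 pigs (group B, 2 gilts and 3 barrows) and coconut oil in 6 pigs (group C, 3 gilts and 3 barrows), in diets of similar energy and protein. The age of the pigs is not given in the sources used here. Libraries held the 3′ ends of mRNA, 1 library per pig.

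Growth factor receptors of the liver carry signals from blood and neighbouring cells into hepatocytes. EGFR binds EGF, TGFA and related ligands, pairs with ERBB2 or ERBB3, and signals through the RAS-MAPK and PI3K-AKT cascades in liver growth and regeneration. MET is the receptor of hepatocyte growth factor, INSR and IGF1R are the insulin and IGF1 receptors, GHR drives hepatic IGF1 production, and FGFR4 with its co-receptor KLB receives the intestinal bile acid signal FGF19. ERRFI1 is made in response to EGFR activity, binds the EGFR kinase and dampens it.

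The libraries held from 705669 to 1767671 reads on genes. Levels are given in CPM, the reads of a gene relative to all reads on genes in that pig, after TMM scaling for differences in library composition. They count 3′ ends and are not compared between genes. Beef tallow pig 3 lay apart from the other pigs on the first principal component, which held 19.3% of the variance. Values without it are given for some of the genes where it lay lowest or highest. All 12 hepatocyte markers examined had reads, but SERPINA1 had a mean of only 0.305 CPM over the pigs. The bile duct markers summed to between 3.93 and 42.2 CPM per pig. The summed hepatocyte, Kupffer cell, endothelial, stellate, bile duct, lymphocyte and red blood cell markers overlapped between the diets in every pair, but single markers moved. Between groups R and B, 1 of 11 hepatocyte markers passed by edgeR (TTR, lower in group B, log2 fold change -0.78), 1 of 9 Kupffer cell markers (CD163, higher, 0.79) and 1 of 5 endothelial markers (LYVE1, higher, 0.88), beside 1.11% of all genes. The hepatocyte markers CPS1 (0.83, edgeR adjusted p = 0.0627) and HNF4A (0.51, edgeR adjusted p = 0.323) were higher in group B. The median over the 11 hepatocyte markers was 0.037. In group C against group R no marker passed by edgeR. There, 2 of 11 hepatocyte and 1 of 9 Kupffer cell markers had an unadjusted p below 0.05, beside 13% of all genes. So had 2 of 5 endothelial and 1 of 8 stellate markers. Of these LYVE1 (0.86) and ACTA2 (0.93) were higher in group C, and TF (-0.38), ASGR1 (-0.64), C1QA (-0.65) and KDR (-0.41) were lower. In group C against group B, 4 of 9 Kupffer cell markers had an unadjusted p below 0.05 (all lower in group C, beside 11.5% of all genes), with a median log2 fold change of -0.44 over the 9 and sums of 842 to 1106 CPM against 1050 to 2034. EGFR levels also differed between these diets, and the part of these cells in the values below was not tested. In bulk liver, fewer cells of a type and less RNA per cell cannot be told apart.

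EGFR (chromosome 9 from 139302410 to 139474632, Sscrofa11.1) was lowest with rapeseed oil, intermediate with coconut oil and highest with beef tallow. With rapeseed oil the 5 pigs had 41.9, 52.3, 32.3, 39.1 and 51.1 CPM. With beef tallow they had 151, 158, 107, 144 and 167 CPM. With coconut oil the lowest pig had 63.2, the median was 83.2 and the highest pig had 101 CPM. No group overlapped another, and the narrowest gap lay between the highest pig of group C and beef tallow pig 3, the lowest of group B.

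**Figure D1:**
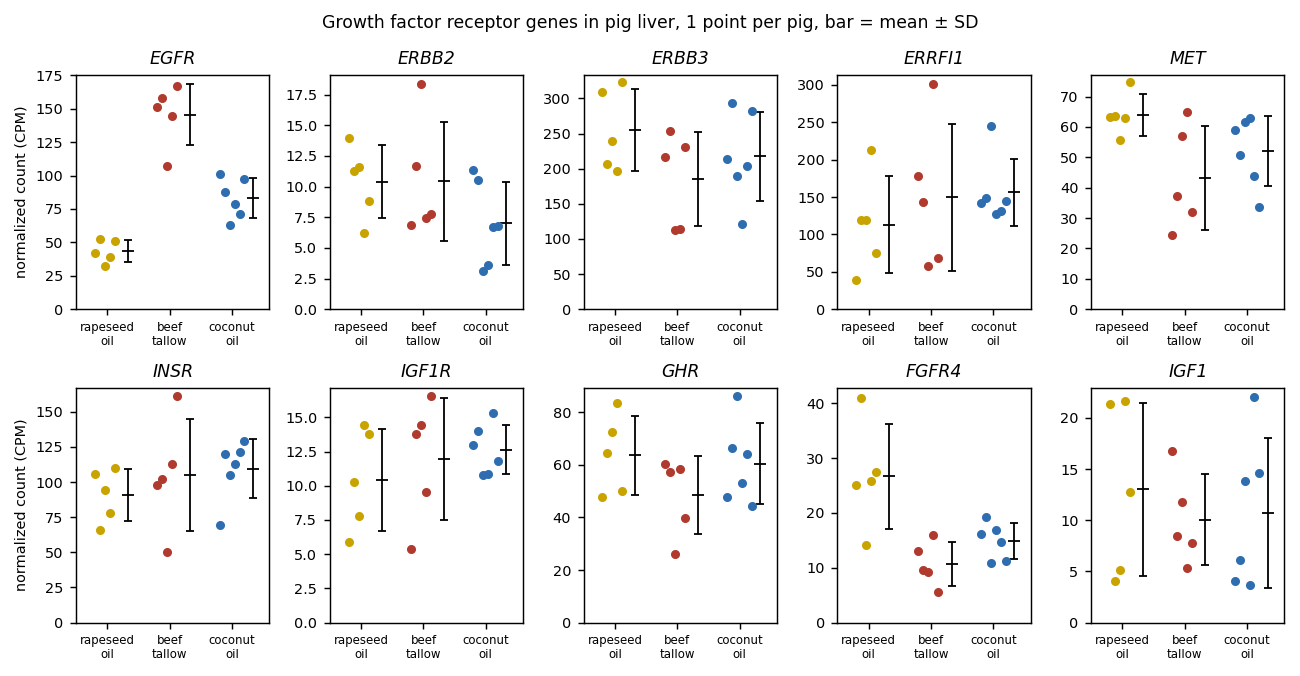
Normalized counts (CPM, vertical axis from 0) of the 10 genes in each pig by diet, with the mean and SD of each diet beside the points. The 3 diets form separate bands only for EGFR, which was selected on its difference between the diets. The bands lie between 32.3 and 52.3 CPM in group R, 63.2 and 101 in group C, and 107 and 167 in group B.

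The mean EGFR level was 43.4 ± 8.40 CPM in group R (SD, n = 5), 83.2 ± 14.9 in group C (n = 6) and 146 ± 23.1 in group B (n = 5). The fitted fold was 3.33 for group B over group R (1.74 on the log2 scale, with a standard error, SE, of 0.19), 1.91 for group C over group R (0.94, SE 0.18) and 0.577 for group C over group B (-0.79, SE 0.17). These contrasts share the pigs of a diet and chose the gene, so nothing is read from their agreement. Of all genes tested, 2.58% were higher in every pig of group B than in every pig of group R, 0.643% were so in group C over group R, and 0.881% were lower in every pig of group C than in every pig of group B.

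Within a diet, the coefficient of variation of EGFR was 19.4%, 15.9% and 17.9% for groups R, B and C. Read counting alone gives 15.2%, 8.08% and 10.4%. A gene chosen for its difference between diets tends to have a small spread within them, so nothing is read from these values. A pig gave 25 to 57 EGFR reads with rapeseed oil, 136 to 198 with beef tallow and 41 to 173 with coconut oil. ERRFI1, with more reads, varied by 57.1%, 65.7% and 28.4% in the same groups. INSR varied by 20.6%, 38.0% and 19.4%, and MET by 10.7%, 39.7% and 22.1%. RefSeq places a long noncoding RNA (LOC110255552) overlapping the EGFR locus. The strand setting of the counting is not given in the sources used here, and overlap of exons was not examined. Reads of that RNA may therefore be among the EGFR reads. By gene span, IGF1 also overlaps long noncoding RNAs (LOC110260785 and LOC110260784), IGF1R the coding gene PGPEP1L, and FGFR4 MIR7138. Whether their counts hold reads of these genes was not tested.

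The share of reads with several alignments, which were counted on no gene, had medians of 26.5%, 22.2% and 19.8% for groups R, B and C, an order other than that of EGFR. Group R had both the highest median share and the lowest EGFR levels. In group C, pig 3 had the highest share (38.1%) and the lowest EGFR, and pig 1 had the lowest share (15.4%) and the highest EGFR. In group B, pig 3 had the highest share (33.2%) and the lowest EGFR. In group R, the pig with the lowest EGFR lay at the median share. The part of this share in the EGFR levels was not tested. Without beef tallow pig 3 the log2 fold change of EGFR between groups R and B was 1.83.

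The sex of the pigs was not used in choosing the genes. EGFR had 78.4 ± 38.7 CPM in the gilts (SD, n = 8) and 102 ± 49.8 in the barrows (n = 8), over all diets. In edgeR, a count model fitted over all genes, with diet as a term, the log2 difference of barrows over gilts was 0.13 (95% interval from -0.18 to 0.43, adjusted p = 0.961). An adjusted p is corrected for all genes tested, and it measures a difference against the spread between pigs. Since no pigs of different diets overlapped, the order of the diets within a sex is fixed by the choice of the gene, and only the sizes are given. Group B exceeded group R by 1.49 on the log2 scale in gilts and by 1.90 in barrows, and group C exceeded group R by 0.78 in gilts and by 1.07 in barrows. The interaction of sex and diet was 0.36 for groups R and B (95% interval from -0.50 to 1.21, edgeR adjusted p = 0.999), 0.22 for groups R and C (from -0.59 to 1.04) and -0.094 for groups B and C (from -0.85 to 0.66). With 2 or 3 pigs of a sex per diet these intervals are wide.

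**Figure D2:**
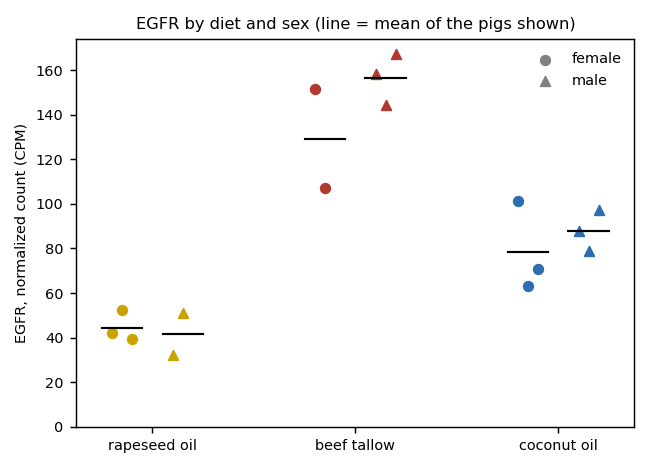
EGFR level (CPM, vertical axis from 0) by diet, with gilts as circles, barrows as triangles and a line at the mean of each. The mean of the barrows exceeds that of the gilts with beef tallow (157 and 129 CPM) and lies near it with rapeseed oil (41.7 and 44.5 CPM). The order of the diets follows from the choice of the gene.

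Of the 9 other genes, 0 passed an edgeR adjusted p of 0.05 between groups R and B, where 1.11% of all 6318 genes tested passed. At an unadjusted p below 0.05 there were 2, FGFR4 and MET, both lower in group B, where 15% of all genes had such a p. DESeq2, another count model, called 1 of the 9, FGFR4, and 3.08% of all genes. In all 9 the groups overlapped, while 4.57% of all genes tested had groups that did not.

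In the coconut oil pigs against the rapeseed oil pigs, 0 of the 9 passed by edgeR (0.138% of all 6528 genes did) and 0 by DESeq2 (2.64%), with 1, FGFR4, at an unadjusted p below 0.05 in edgeR (13% of all genes). Against the beef tallow pigs 8 were tested, since ERBB2 had too few reads. Of these 0 passed by edgeR (0.0587% of all 6812 genes did), 0 passed by DESeq2 (1.33%) and 0 had an unadjusted p below 0.05 in edgeR (11.5% of all genes). The groups of all 9 overlapped in both comparisons, while 1.46% and 1.45% of all genes had groups that did not. DESeq2 gave an adjusted p to 7, 5 and 5 of the 9 genes in the 3 comparisons.

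**Figure D3:**
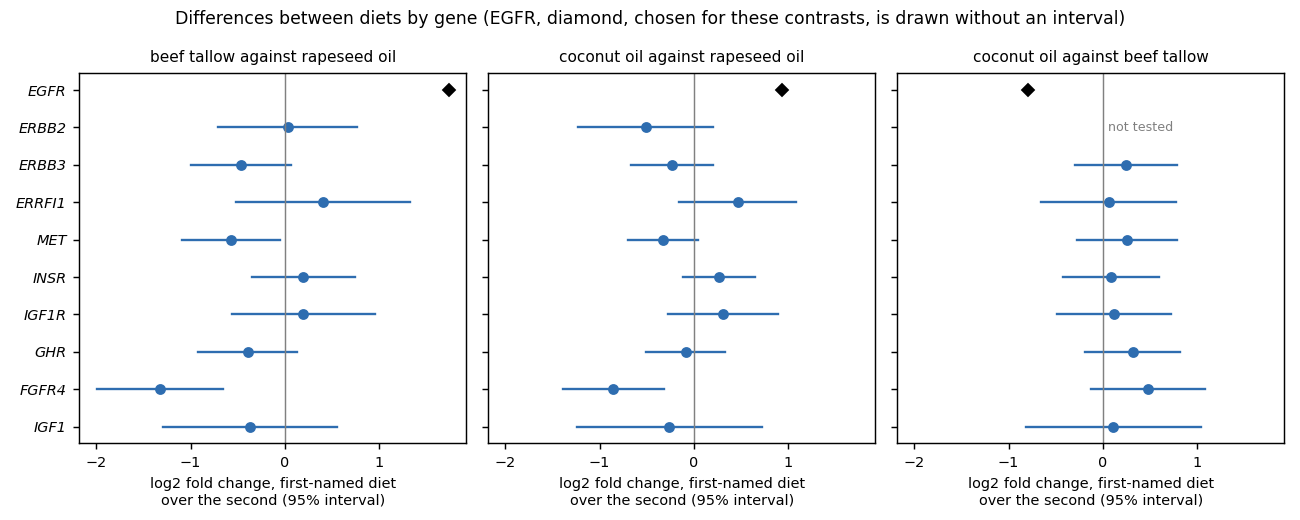
Log2 fold changes of the 10 genes in the 3 comparisons of diets (horizontal axis, first-named diet over the second), with 95% intervals from edgeR for all but EGFR. EGFR is at 1.74, 0.94 and -0.79. FGFR4 lies on the other side of 0 in each panel, at -1.32, -0.86 and 0.48.

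FGFR4 (ENSSSCG00000014047, chromosome 2 from 80841536 to 80853791) was the receptor with the next largest change after EGFR, in the opposite direction. The rapeseed oil pigs had 25, 41, 14.2, 25.8 and 27.5 CPM. The beef tallow pigs had 13, 9.55, 9.19, 15.9 and 5.53 CPM. Among the coconut oil pigs the lowest had 10.8, the median was 15.4 and the highest had 19.3 CPM. Only rapeseed oil pig 3 fell into the range of group B, and the same pig was the only one of group R within or below the range of group C.

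The mean FGFR4 level was 26.7 ± 9.56 CPM in group R (SD, n = 5), 10.6 ± 3.97 in group B (n = 5) and 14.9 ± 3.32 in group C (n = 6). The log2 fold change of group B over group R was -1.32 (SE 0.32, 95% interval from -1.99 to -0.65, edgeR adjusted p = 0.0563), just short of the threshold. The adjusted p depended on the fit. It was 0.0158 by DESeq2, 0.0138 in edgeR without the filter on low counts, and 0.0237 with all 16 pigs in 1 fit. It was 0.0749 with sex as a covariate, and with any 1 pig left out it lay between 0.0569 and 0.129. The log2 fold change of group C was -0.86 over group R (95% interval from -1.39 to -0.32, edgeR adjusted p = 0.171) and 0.48 over group B (from -0.13 to 1.08, edgeR adjusted p = 0.539). FGFR4 rested on 5 to 40 reads per pig.

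KLB, the co-receptor of FGFR4 for FGF19, was among the genes listed for this axis and is named here after its values were seen. It stood at 23.5, 12.3, 29.7, 29.9 and 37.4 CPM with rapeseed oil. With beef tallow it stood at 22.2, 14.9, 9.19, 9.56 and 5.53 CPM, and the range of group C was 16.3 to 31.6 CPM. Most pigs of group B thus lay below most pigs of both other groups, with overlap. On the log2 scale KLB differed by -1.08 for group B over group R (SE 0.36, edgeR adjusted p = 0.148), -0.17 for group C over group R (SE 0.27, edgeR adjusted p = 0.849) and 0.92 for group C over group B (SE 0.32, edgeR adjusted p = 0.302). FGFR4 and KLB were the 2 of the 5 tested genes of the FGF receptor axis with an unadjusted p below 0.05 between groups R and B, beside 15% of all genes. FGF19 itself, made in the gut, had 0 reads in the 16 livers, which allows up to 0.165 CPM (3 reads over all pigs, counting error only).

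MET (ENSSSCG00000024351) had even levels in group R and spread levels in group B. With rapeseed oil the values were 63.3, 63.6, 55.6, 62.8 and 74.7 CPM. With beef tallow they were 24.5, 37.1, 57.1, 64.8 and 32.1 CPM, and those of group C ranged from 33.8 to 62.9 CPM around a median of 54.9. Beef tallow pigs 3 and 4 lay within the range of group R, and the other 3 lay below it. The log2 fold change of group B over group R was -0.57 (95% interval from -1.09 to -0.052, edgeR adjusted p = 0.284), and that of group C over group R was -0.33 (edgeR adjusted p = 0.455). The gene of its ligand, HGF, which is made by the non-parenchymal cells of the liver, had means of 33 ± 22.1, 46.9 ± 25.9 and 36.5 ± 13.9 CPM for groups R, B and C (SD, n = 5, 5 and 6). HPN, a hepatocyte surface protease that can activate HGF, had means of 67.7 ± 17.2, 106 ± 18.7 and 67.5 ± 11.5 CPM, and no beef tallow pig was as low as any pig of the other diets. For HPN the log2 fold change was 0.65 for group B over group R (edgeR adjusted p = 0.145) and -0.65 for group C over group B (edgeR adjusted p = 0.210), the latter past the threshold by DESeq2 (adjusted p = 0.0371).

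The EGFR relatives gave overlapping levels between diets. ERBB3 (ENSSSCG00000020725), a receptor with little kinase activity of its own that signals through its partners, had 310, 206, 239, 197 and 324 CPM with rapeseed oil, 216, 254, 112, 114 and 231 with beef tallow and from 121 to 294 with coconut oil. The groups overlapped widely. ERBB3 differed by -0.46 on the log2 scale for group B over group R (95% interval from -0.99 to 0.063, edgeR adjusted p = 0.390), -0.23 for group C over group R (from -0.67 to 0.21, edgeR adjusted p = 0.705) and 0.24 for group C over group B (from -0.30 to 0.78, edgeR adjusted p = 0.747). Beef tallow pig 3 had the lowest ERBB3 level of the 16 pigs. Without it ERBB3 differed by -0.33 for group B over group R and 0.10 for group C over group B. ERBB2 (ENSSSCG00000017497), the ligandless partner receptor, rested on only 2 to 28 reads per pig. It had 10.4 ± 2.97 CPM in group R (SD, n = 5), 10.4 ± 4.84 in group B (n = 5) and 7.01 ± 3.40 in group C (n = 6), and the 95% interval of its log2 fold change between groups R and B ran from -0.71 to 0.77. The log2 fold change of ERBB2 for group B over group R was 0.029, and -0.32 without beef tallow pig 3, the highest of the 16 pigs. ERBB4, the remaining member of the family, had 1 read in all 16 livers.

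ERRFI1 (ENSSSCG00000035774), the feedback inhibitor of EGFR, varied more between pigs of a diet than between diets. Rapeseed oil pigs had 39.7, 119, 119, 212 and 75.7 CPM, and beef tallow pigs had 178, 143, 57.8, 301 and 68.6 CPM. Of the coconut oil pigs the lowest had 127, the median was 143 and the highest, coconut oil pig 3, had 245 CPM. The log2 fold change was 0.41 for group B over group R (95% interval from -0.51 to 1.33, edgeR adjusted p = 0.709), 0.46 for group C over group R (from -0.16 to 1.09, edgeR adjusted p = 0.539) and 0.061 for group C over group B (from -0.65 to 0.78, edgeR adjusted p = 0.963). The intervals against group R include both no change and a change of the size seen for EGFR in group C. Without coconut oil pig 3 the value for group C over group R was 0.30, and with each pig left out it ran from 0.24 to 0.82. Without beef tallow pig 3 the value for group B over group R was 0.62. Across the 16 pigs the Pearson correlation of the log2 levels of ERRFI1 and EGFR was 0.17, and within diets, on deviations from the diet means, it was -0.044. The points share their libraries and differ in depth.

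**Figure D4:**
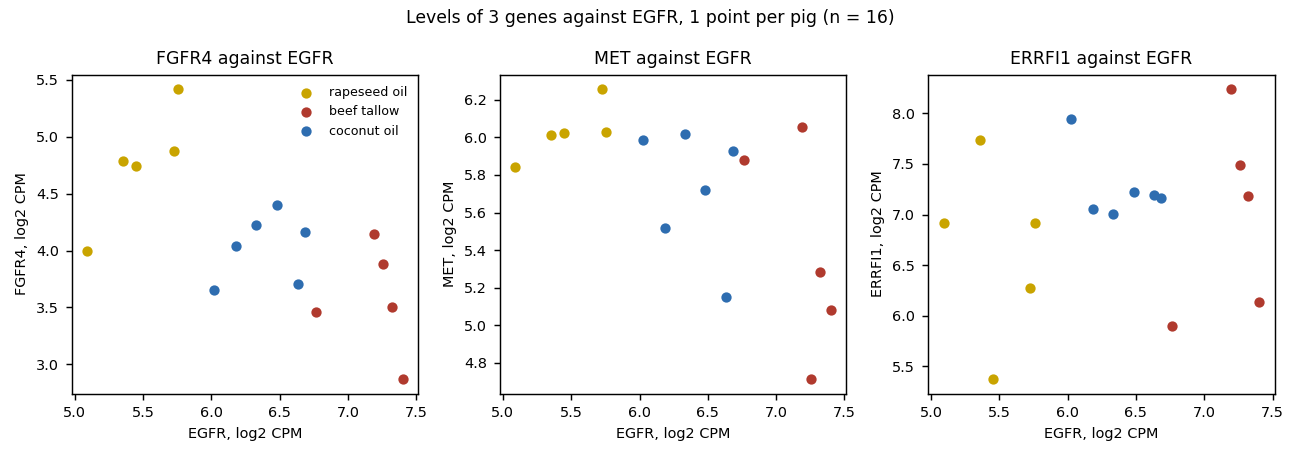
Log2 CPM of FGFR4, MET and ERRFI1 (vertical axes) against log2 CPM of EGFR (horizontal axes) in the 16 pigs, coloured by diet. FGFR4 falls from the rapeseed oil pigs on the left to the beef tallow pigs on the right (r = -0.65), MET does so with more spread (r = -0.62), and ERRFI1 shows no such order (r = 0.17).

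FGFR4 and MET had Pearson correlations with EGFR of -0.65 and -0.62 over the 16 pigs. On deviations from the diet means the correlation of FGFR4 was 0.37 and that of MET was -0.27, so for FGFR4 the negative value described the diet means and not pigs on the same diet. ERBB3 had -0.27 over all pigs and 0.50 within diets.

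The insulin and growth hormone receptors also gave overlapping groups. INSR (ENSSSCG00000013566) had 106, 65.7, 94.4, 78.3 and 110 CPM with rapeseed oil, 97.8, 102, 49.9, 113 and 161 with beef tallow and from 69.6 to 129 with coconut oil. Its log2 fold change was 0.19 between groups R and B (95% interval from -0.35 to 0.74, edgeR adjusted p = 0.779) and 0.27 between groups R and C (from -0.12 to 0.65, edgeR adjusted p = 0.580), and 0.084 for group C over group B (edgeR adjusted p = 0.922). Beef tallow pig 3 was the lowest of the 16 pigs, and without it the log2 fold change was 0.38 between groups R and B and -0.10 for group C over group B. IGF1R (ENSSSCG00000030560), which adult hepatocytes express weakly, had 6 to 25 reads per pig and means of 10.4, 11.9 and 12.6 CPM in groups R, B and C. Its log2 fold changes lay between 0.11 and 0.31, with edgeR adjusted p-values from 0.707 to 0.908.

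GHR (ENSSSCG00000016866) had 47.8, 64.6, 72.4, 83.4 and 50.2 CPM with rapeseed oil, 60.4, 57.3, 26.3, 58.4 and 39.8 with beef tallow and from 44.5 to 86.4 with coconut oil. The lowest of the 16 pigs was beef tallow pig 3. The log2 fold change between groups R and B was -0.40 (95% interval from -0.92 to 0.13, edgeR adjusted p = 0.472), and -0.22 without that pig. IGF1 (ENSSSCG00000000857), the circulating growth factor made by the liver under growth hormone, ranged from 4.10 to 21.6 CPM with rapeseed oil, from 5.31 to 16.8 with beef tallow and from 3.63 to 22 with coconut oil. Its log2 fold changes were -0.37 for group B over group R (95% interval from -1.30 to 0.55, edgeR adjusted p = 0.738), -0.26 for group C over group R (from -1.24 to 0.72) and 0.11 for group C over group B (from -0.82 to 1.04). Each of these intervals, at 3 to 36 reads per pig, includes changes of 1 on the log2 scale. Of 7 genes of the growth hormone axis tested, IGF1 and GHR among them, 6 had log2 fold changes below 0 in group B against group R and 6 in group C against group R, and 0 had an unadjusted p below 0.05 in edgeR in either comparison. Among all genes 48.5% and 50.1% lay below 0, and 15% and 13% had such a p.

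Between the sexes, 0 of the 9 genes of the group that were tested passed by edgeR, EGFR included, where 0.0786% of all 6365 genes passed, and 0 passed by DESeq2. At an unadjusted p below 0.05 there were 2, where 4.9% of all genes had one. INSR had 86.6 ± 24.4 CPM in gilts and 118 ± 20.6 in barrows (SD, n = 8 each), a log2 difference of 0.43 (edgeR adjusted p = 0.914). IGF1 had 14.5 ± 7.41 CPM in gilts and 7.99 ± 3.87 in barrows, a log2 difference of -0.77 (edgeR adjusted p = 0.914). In the interaction of sex and diet, 0 of the 10 genes (9 for groups B and C) passed by edgeR and 0 by DESeq2 in any pair of diets. None had an unadjusted p below 0.05 in edgeR, where 3.96%, 3.98% and 3.52% of all genes did.

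Of the ligands of EGFR, TGFA and EREG had enough reads to be tested. EREG (epiregulin) had 278 reads in the 16 pigs and TGFA (transforming growth factor alpha) 248, while HBEGF had 61, BTC 26, AREG 6 and EGF 4. The neuregulin NRG1, a ligand of ERBB3, had 6 reads, and NRG2 and NRG3 had 0, which allows up to 0.165 CPM. EREG had means of 12.8 ± 4.39, 12.9 ± 5.29 and 21 ± 10.4 CPM for groups R, B and C (SD, n = 5, 5 and 6), and the log2 fold change of group C over group R was 0.68 (SE 0.35, edgeR adjusted p = 0.423). TGFA had means of 11.7 ± 3.36, 14.9 ± 6.56 and 13.4 ± 4.26 CPM (edgeR adjusted p = 0.641 for group B against group R). ADAM10, a protease that frees some ligands of this family from the cell surface, had means of 21 ± 2.24, 21.3 ± 8.35 and 26.7 ± 6.04 CPM. ADAM17, listed for the same step, had only 5 reads in the 16 pigs and could not be tested.

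Around these genes, 163 genes of growth factor signalling and receptor folding other than EGFR were listed, of which 154 were in the count files. Of these, 90 were tested between groups R and B and 2 passed by edgeR, the chaperones HSPA5 and HSPA8. Both were higher in group B, where 0.649% of all genes tested passed as higher. The paper has both among its top genes of this comparison, and the lists were made with earlier results known. The median log2 fold change of the 90 was 0.040, beside 0.011 for all genes. In group C against group R, 1 of 92 passed, HSPA8, higher in group C (0.0613% of all genes), with a median of -0.012 beside -0.0011. No listed gene outside the chaperones passed by edgeR. In group C against group B, 0 of 93 passed by edgeR and 2 by DESeq2, HSPA5 and HPN, and 10.8% had an unadjusted p below 0.05 beside 11.5% of all genes.

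**Figure D5:**
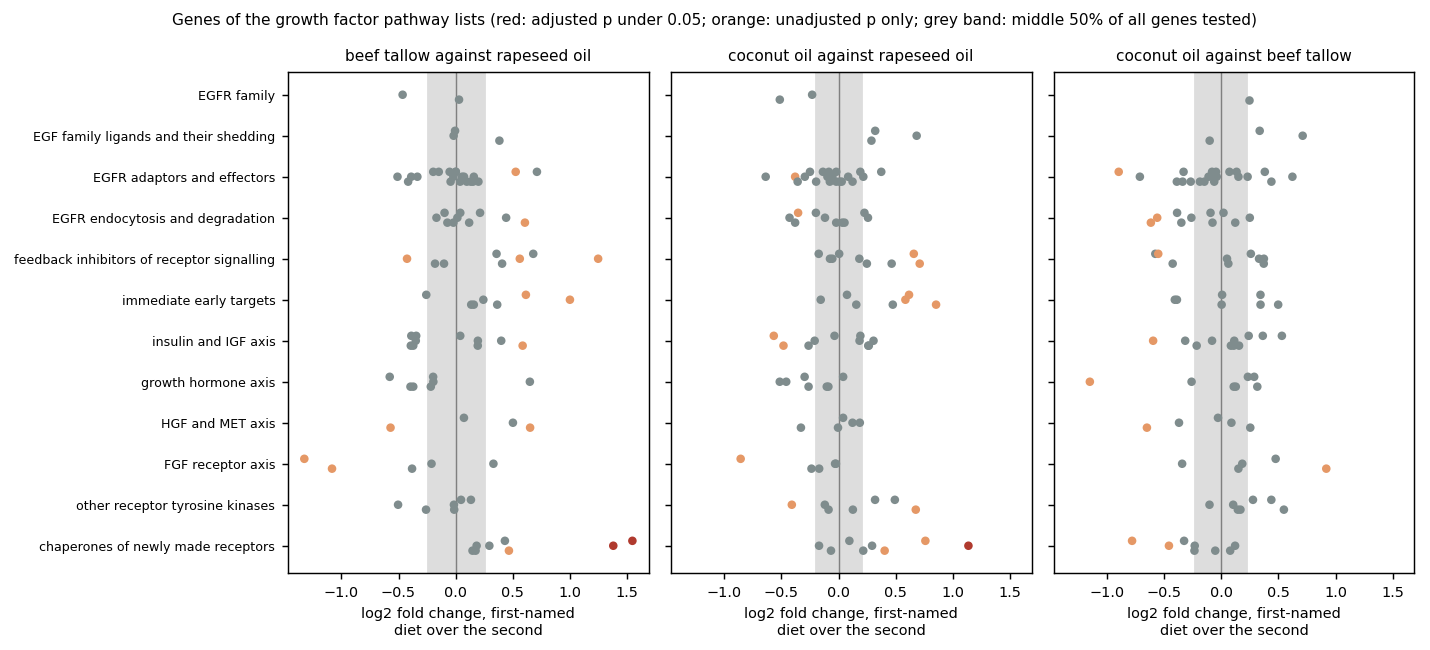
Log2 fold changes (horizontal axes) of the tested genes of 12 growth factor lists in the 3 comparisons of diets, 1 point per gene, with the middle 50% of all genes tested as a grey band. The points past an adjusted p of 0.05 are the chaperones HSPA5 and HSPA8 (1.54 and 1.38) between groups R and B and HSPA8 (1.14) between groups R and C.

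The genes that passed were HSPA5 and HSPA8, chaperones of the endoplasmic reticulum and the cytosol that fold newly made proteins, receptors among them. HSPA5 had means of 566 ± 97.7, 1654 ± 330 and 962 ± 278 CPM for groups R, B and C (SD, n = 5, 5 and 6), a log2 fold change of 1.54 for group B over group R (edgeR adjusted p = 0.00104). HSPA8 had means of 159 ± 31.6, 414 ± 78.7 and 351 ± 70.2 CPM, with log2 fold changes of 1.38 and 1.14 over group R (edgeR adjusted p = 0.00517 and 0.0115). All 8 chaperones tested had log2 fold changes above 0 between groups R and B, with a median of 0.36, and 3 of them an unadjusted p below 0.05. Of all genes 51.5% lay above 0 and 15% had such a p.

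Of 21 adaptors and effectors of EGFR tested between groups R and B, 0 passed by edgeR and 1 had an unadjusted p below 0.05, PTPN11, the phosphatase that links receptors to RAS, at means of 51.6 and 74.1 CPM (log2 fold change 0.52, edgeR adjusted p = 0.267). Their median log2 fold change was 0.00098. Among all genes 1.11% passed and 15% had such a p. Of 10 genes of endocytosis and receptor degradation tested, 0 passed by edgeR and 1 had an unadjusted p below 0.05. This was CLTC (clathrin heavy chain), which coats the vesicles that take in EGFR. CLTC had means of 25.4 ± 6.20, 38.9 ± 6.74 and 25.7 ± 5.60 CPM for groups R, B and C. On the log2 scale it differed by 0.61 for group B over group R (edgeR adjusted p = 0.198) and -0.62 for group C over group B (edgeR adjusted p = 0.299).

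Of 8 feedback inhibitors of receptor signalling tested between groups R and B, 0 passed by edgeR, and 3 had an unadjusted p below 0.05, PTPN1 and DUSP1 as higher and PTPRK as lower in group B, beside 1.11% and 15% of all genes. PTPN1, a phosphatase of the insulin receptor and EGFR, had 82.4, 71.8, 78.9, 75.2 and 75.7 CPM with rapeseed oil, 114, 95.5, 129, 130 and 98.4 with beef tallow and from 61.7 to 88.0 with coconut oil. No beef tallow pig was as low as any pig of the other diets. The log2 fold change of PTPN1 was 0.56 for group B over group R (SE 0.16, edgeR adjusted p = 0.114, DESeq2 adjusted p = 0.0491), 0.0058 for group C over group R (edgeR adjusted p = 0.990) and -0.55 for group C over group B (edgeR adjusted p = 0.257). DUSP1, a phosphatase that switches off MAP kinases, ranged from 13.8 to 221 CPM in group B, and its log2 fold changes over group R were 1.25 in group B (SE 0.49, edgeR adjusted p = 0.240) and 0.66 in group C (SE 0.27, edgeR adjusted p = 0.299). The lowest of group B was beef tallow pig 3, and without it the log2 fold change over group R was 1.54 and passed (edgeR adjusted p = 0.0299). With all pigs it also passed in edgeR without the filter on low counts (adjusted p = 0.0106), and not by DESeq2 (adjusted p = 0.336).

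Of 17 genes listed as early targets of receptor signalling, only 7 were tested against group R, and 0 passed by edgeR. In group B against group R, 6 had log2 fold changes above 0 (median 0.24) and 2 an unadjusted p below 0.05, FOSL2 and JUN. In group C against group R, 6 were above 0 (median 0.47) and 3 had such a p, FOS, FOSL2 and JUN. Among all genes 51.5% and 49.9% lay above 0 in these comparisons (medians 0.011 and -0.0011), and 15% and 13% had such a p. FOSL2 had means of 15.5 ± 5.34, 31.9 ± 10.9 and 23.4 ± 7.04 CPM for groups R, B and C (edgeR adjusted p = 0.109 and 0.372 against group R). JUN had means of 97.7 ± 24.0, 150 ± 16 and 150 ± 52.5 CPM, with log2 fold changes of 0.61 and 0.62 (edgeR adjusted p = 0.126 and 0.250), the latter 0.40 without coconut oil pig 1, which stood at 252 CPM.

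SOCS3, an inhibitor of cytokine and growth hormone receptors, had means of 23 ± 8.11, 37.2 ± 20.8 and 16.6 ± 4.76 CPM for groups R, B and C. The log2 fold change of group C over group B was -1.15 (edgeR adjusted p = 0.299), and without beef tallow pig 3, its lowest pig in group B, the adjusted p was 0.0309 and the log2 fold change -1.46. KIT, a receptor tyrosine kinase of mast cells and progenitors, had means of 26.8 ± 7.51 and 42.4 ± 6.07 CPM for groups R and C, which did not overlap (log2 fold change 0.68, SE 0.21, edgeR adjusted p = 0.179). The same was true of 1.46% of all genes. In group B, KIT had 30.0 ± 22.3 CPM, ranged from 12.5 to 66.8 CPM and overlapped both other groups.

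The genes whose levels ran most like those of EGFR over the 16 pigs, among 6048 genes with a symbol, were MARK3 (Pearson r = 0.88), SRSF6 (0.86), HSPA5 (0.86), ZBTB16 (0.85), ENTPD4 (0.84), GOLGA4 (0.83), TAF8 (0.83), HSPA8 (0.83), NOLC1 (0.83) and SARAF (0.83). These correlations describe the shared order of the diets as well as single pigs. The middle 95% of all genes lay between -0.62 and 0.66. MARK3 is a kinase of cell polarity, SRSF6 a splicing factor, ZBTB16 a transcription factor, NOLC1 a nucleolar protein and SARAF a regulator of calcium entry. The lowest values were those of NMRK1 (-0.89), ADTRP (-0.89), BBOX1 (-0.84), UQCC3 (-0.82) and GCLC (-0.82), of which BBOX1 makes carnitine and GCLC makes glutathione.

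Within diets, on deviations from the diet means, other genes were most like EGFR. They were SLC15A4, ZNF570, PXK, TRIM24, PSEN2, RANBP10, TNRC6A, CUL4A, AAMP and SH3D19, with r from 0.84 down to 0.76, and 0 of them were among the 10 highest over all pigs. HSPA5 and HSPA8 had r of 0.099 and 0.13 within diets, and SARAF had 0.73. PSEN2, a subunit of the protease that cleaves Notch and ERBB4, had r of 0.80 within diets and 0.73 over all pigs.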

How the data were processed

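Liver RNA of 16 pigs was sequenced as QuantSeq 3′ libraries. The deposited files hold raw counts of reads per Ensembl gene, which the authors made with HTSeq-count after FastQC quality checks, FLEXBAR trimming and TopHat alignment to the pig assembly Sscrofa11.1. The labels and the methods name different RNA extraction kits. No 2 of the 120 pairs of libraries were identical.

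edgeR 4.0.16 (R 4.3.3) gave the quasi-likelihood tests, 1 fit for each pair of diets with no covariate, after TMM normalization and filterByExpr (minimum count 10, minimum total 15). P-values were adjusted by Benjamini-Hochberg over all genes tested, at a threshold of 0.05. Standard errors are the log2 fold change over the square root of F, and 95% intervals use the degrees of freedom of that test. Sex was tested over all 16 pigs with diet as a term. The model was tested on simulated data. DESeq2 1.42.0 and the other alternatives are given at the end. Log2 CPM used a prior count of 2.

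The 10 genes and all lists were chosen with earlier results of these data known, so no set was tested. Named genes are the 10, the EGF family, list genes past the threshold or with the 5 smallest p per comparison, and the genes most and least like EGFR. KLB, DUSP1, FOS, HGF, FGF19, PTPN11, PTPRK and values of named genes in further comparisons were added after their values were seen. So were the markers TTR, CPS1, HNF4A, CD163, LYVE1, SERPINA1, ACTA2, TF, ASGR1, C1QA and KDR. Gene positions are those of RefSeq for Sscrofa11.1, matched by symbol. Of the listed genes, 9 were not analysed here.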

Additional observations from a re-analysis of the deposited data

Results flagged for a closer look

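ERRFI1 in coconut oil pig 3 stood at 245 CPM, while the other 5 pigs of that diet lay between 127 and 148 CPM. JUN in coconut oil pig 1 stood at 252 CPM, with the other 5 pigs between 110 and 158 CPM. In both cases the gap to the next pig was larger, as a share of the range of the group, than Dixon's 95% critical value. Of 57 groups examined (19 genes in 3 diets) 2 were marked in this way, and chance marks about 1 in 20. Without coconut oil pig 3, the log2 fold change of ERRFI1 was 0.30 for group C over group R and -0.11 for group C over group B. Without coconut oil pig 1, that of JUN for group C over group R was 0.40.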

How the results depend on the processing

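Under all alternatives run, the log2 fold change of EGFR ran from 1.65 to 1.83 between groups R and B. It ran from 0.85 to 1.01 between groups R and C and from -0.89 to -0.74 between groups B and C. Leaving out 1 pig can move the mean of a diet only little, and these contrasts chose the gene. Nothing is therefore read from these ranges. Among the 9 other genes, 1 (FGFR4) passed between groups R and B with DESeq2, without the filter on low counts, and with all 16 pigs in 1 fit. The count stayed at 0 when each pig was left out. With at least 10 reads in every pig, FGFR4 could not be tested. Of the listed pathway genes, 4 passed between groups R and B, and 2 between groups R and C, both with DESeq2 and without the filter, and 2 passed between groups B and C with DESeq2. With each pig left out these counts ran from 2 to 3 (3, DUSP1 added, without beef tallow pig 3), from 1 to 2 (2 without coconut oil pig 3) and from 0 to 1 (1, SOCS3, without beef tallow pig 3). Between 4 and 8 of the 10 genes most like EGFR over all pigs, and between 2 and 8 of those within diets (2 without beef tallow pig 3), were found again when a pig was left out, so these lists are unstable.

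Some differences that did not pass changed sign when a pig was left out. Between groups R and B, ERBB2 ran from -0.32 to 0.18, ERRFI1 from -0.0049 to 0.77 and INSR from -0.015 to 0.38. Between groups R and C, GHR ran from -0.20 to 0.029, IGF1 from -0.64 to 0.015 and PTPN1 from -0.038 to 0.062. Between groups B and C, ERRFI1 ran from -0.15 to 0.47, INSR from -0.10 to 0.28, IGF1R from -0.090 to 0.24 and IGF1 from -0.039 to 0.38. The cause was not tested.

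The replicate numbers in the labels were not used as pairs in the main fits. Same-numbered pigs had correlations of their deviations from -0.25 to 0.14. Between groups R and C, 3 of 5 pigs were most like the pig of their own number, and 1 of 5 in each other comparison. These values cannot show whether the pigs were paired. With the replicate block, 0 of the other members passed in each comparison, and 2, 1 and 0 pathway genes did. ERBB2 between groups R and B was then at -0.055, and GHR and PTPN1 between groups R and C at 0.0034 and -0.014. The alternatives for DUSP1, KLB, EREG, PTPN11 and further values of named genes were added after seeing the data. ERBB2, IGF1R, FGFR4 and IGF1 had under 10 reads in some pigs, which limits what their tests can show.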
